A study of Mus musculus with 28 samples.

Results

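The epidermal alarmin genes studied here were Il33, its receptor gene Il1rl1, the IL-36 genes Il36a, Il36b, Il36g and Il36rn, and Tslp, which are 7 of the 29068 gene symbols counted in healing mouse skin. They were taken from the table by gene name, and 7 of 7 passed the filter on low counts that left 18107 genes for testing. The count table lists 4 of them under older symbols (Il1f6 for Il36a, Il1f8 for Il36b, Il1f9 for Il36g and Il1f5 for Il36rn), which were matched through RefSeq gene IDs. Total RNA was sequenced from skin at the site of a 6-mm punch wound on the back of mice, on days 0, 3, 5, 7, 10, 12 and 14, with 4 libraries a day and 28 in all. The mice were MLKL+/+ littermates on the C57BL/6J background, 8 weeks old, left to heal without treatment, and the groups differed by label in the day alone. Per the paper, the tissue took in the scab and the epithelial margins, without a separate statement for day 0. Day 0 is the earliest label and the control group of the series. The paper counts its days from 1, which it gives as the day of injury, and how that day relates to day 0 is not given in the sources used here. The text of the series speaks of 5 repeats, and 4 libraries a day were analysed here. No label ties the libraries to separate mice, so the p-values measure only the spread between these samples, which may be technical.

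Alarmins are cytokines that barrier cells hold ready or make quickly when tissue is damaged. IL-33 is stored in the nucleus of keratinocytes, fibroblasts and endothelial cells, is released on injury and signals through ST2, the product of Il1rl1, which mast cells, regulatory T cells and type 2 innate lymphoid cells carry. The IL-36 agonists, encoded by Il36a, Il36b and Il36g, are made mainly by keratinocytes and act on the receptor encoded by Il1rl2 together with the shared subunit encoded by Il1rap, while Il36rn encodes the antagonist that occupies the same receptor. TSLP, a cytokine of epithelial cells, signals through Crlf2 and Il7r.

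The 4 IL-36 genes lie on the plus strand of chromosome 2 and span about 129 kb of the GRCm38.p6 assembly, in the order Il36b (chr2:24153172-24160103), Il36g (chr2:24186476-24193567), Il36a (chr2:24215417-24225701) and Il36rn (chr2:24276954-24282432). Il33 lies at chr19:29925113-29960718 and Il1rl1 at chr1:40404864-40465418, where its start is 37.3 kb from the end of Il1rl2. Promoter windows of RefSeq (GRCm38.p6) were read for 5 of the 7 members and are shown for Il33 and Il36g, whose courses were the most alike of any pair of members, and for Il36b and Il36rn, whose windows hold a searched motif. Each sequence runs 5′ to 3′ on the plus strand within the 250 bases before a start site, without bases that are exonic in any GENCODE transcript. They cover chr19:29924863-29925112 and chr19:29945540-29945789 for the start sites of Il33, which are 20.7 kb apart, chr2:24186226-24186475 for Il36g, chr2:24152922-24153160 for Il36b and chr2:24277124-24277248 for the downstream start site of Il36rn. Capitals mark matches to an AP-1 site (TGANTCA, in Il36b) or to a STAT site (TTCNNNGAA, in Il36g and Il36rn), searched on both strands.
Il33, upstream start site: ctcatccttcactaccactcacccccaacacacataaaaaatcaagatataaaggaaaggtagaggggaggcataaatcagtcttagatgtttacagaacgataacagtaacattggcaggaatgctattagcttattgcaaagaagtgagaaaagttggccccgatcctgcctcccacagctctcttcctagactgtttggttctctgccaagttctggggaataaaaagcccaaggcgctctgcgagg
Il33, downstream start site: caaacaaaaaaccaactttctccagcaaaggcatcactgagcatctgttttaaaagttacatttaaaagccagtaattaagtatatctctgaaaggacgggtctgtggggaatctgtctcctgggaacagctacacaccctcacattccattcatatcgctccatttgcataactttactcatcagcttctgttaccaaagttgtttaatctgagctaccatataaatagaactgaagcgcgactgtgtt
Il36g: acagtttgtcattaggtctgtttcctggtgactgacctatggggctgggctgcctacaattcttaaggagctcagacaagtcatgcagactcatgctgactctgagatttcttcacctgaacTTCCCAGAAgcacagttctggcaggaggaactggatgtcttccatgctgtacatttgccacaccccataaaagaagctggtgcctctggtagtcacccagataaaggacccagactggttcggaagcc
Il36b: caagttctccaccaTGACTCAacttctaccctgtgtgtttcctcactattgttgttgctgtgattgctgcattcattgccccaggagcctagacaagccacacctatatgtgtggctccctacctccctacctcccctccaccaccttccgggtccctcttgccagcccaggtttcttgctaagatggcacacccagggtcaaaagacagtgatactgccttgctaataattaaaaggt
Il36rn: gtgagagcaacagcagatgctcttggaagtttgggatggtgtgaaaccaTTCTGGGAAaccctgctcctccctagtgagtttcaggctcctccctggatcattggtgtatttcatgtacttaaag

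The AP-1 letters lie 236 to 230 bases before the start of Il36b and the STAT letters 128 to 120 bases before the start of Il36g and 98 to 90 bases before the downstream start of Il36rn. Of 32851 windows of the same length, 6.75% held the AP-1 letters and 7.02% the STAT letters. The NF-kappaB consensus was found in none of the windows read and in 3.9% of all windows. The windows of Il33 and Il1rl1 held none of the 3 motifs.

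Depth was even, from 36706513 to 40655764 counts per library (median 39499595). The day 0 libraries were not alike. Summed over 6 markers, basal keratinocyte transcripts reached 6044 and 6886 CPM (counts scaled to the library total) in replicates 1 and 4 against 3068 and 3158 CPM in replicates 2 and 3, while fibroblast transcripts (4 markers) were 10387 and 6037 CPM against 23564 and 22851 CPM and skeletal muscle transcripts (6 markers) 28686 and 29726 CPM against 17062 and 17366 CPM. The biological coefficient of variation was 26.4% on day 0 and 5.70% to 10.8% on later days. Results of the members against day 0 are therefore also given without replicates 1 and 4 or without replicates 2 and 3, a choice made after seeing the data, wherever that changes a call. Marker and pathway genes are given with all day 0 libraries only. Skin from every day held keratin transcripts, as its label requires, with Krt5 and Krt14 together at a mean of 2634 to 3767 CPM. In bulk RNA, fewer cells of a type and less RNA per cell cannot be told apart.

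Il33, Il1rl1 and the IL-36 agonist genes were higher than on day 0 through the first week of healing, and most members were lower than on day 0 by day 14. By edgeR's quasi-likelihood test with an adjusted p under 0.05, 5 of 7 members rose and 1 fell from day 0 to day 3, when 31.8% of all tested genes rose and 34.8% fell. From day 0 to day 5, 5 rose and 0 fell (all genes, 29.0% and 30.6%), and to day 7, 6 rose and 0 fell (25.6% and 24.8%). In this first week the share of members that rose exceeded that of all genes, and Tslp was the only member to fall. By day 10, 4 were higher and 1 lower than on day 0 (23.5% and 26.9%), and by day 12, 2 were higher and 3 lower (21.7% and 25.6%). On day 14, 1 was higher and 5 were lower (28.2% and 34.5%). The median log2 fold change of the 7 members against day 0 was 1.09 for day 3, 1.49 for day 5, 1.21 for day 7, 0.60 for day 10, 0.02 for day 12 and -0.99 for day 14, while that of all tested genes lay between -0.06 and 0.00 in each comparison. These comparisons share the day 0 libraries. The members thus passed from mostly higher to mostly lower between days 10 and 14. Counted by libraries without overlap, 5 members lay wholly above day 0 on each of days 3, 5 and 7 (all genes, 28.2%, 22.9% and 19.9%) and 0 wholly below it (28.6%, 23.2% and 19.3%). The members wholly above and wholly below day 0 numbered 4 and 0 for day 10 (all genes, 19.5% and 21.9%), 1 and 1 for day 12 (18.6% and 20.2%) and 0 and 4 for day 14 (23.4% and 27.3%). Without day 0 replicates 1 and 4, the member counts higher and lower were 5 and 1 for day 3, 5 and 1 for day 5, 6 and 0 for day 7, 4 and 2 for day 10, 1 and 3 for day 12, and 0 and 5 for day 14. Of all genes tested under that split, 31.5% were higher and 32.6% lower for day 3, 29.0% and 28.5% for day 5, 25.6% and 22.3% for day 7, 24.6% and 24.8% for day 10, 22.8% and 24.3% for day 12, and 28.9% and 32.7% for day 14. Without replicates 2 and 3, the member counts were 6 and 0, 7 and 0, 7 and 0, 5 and 0, 3 and 1, and 2 and 4 in the same order. The shares of all genes were then 32.1% and 29.5%, 28.7% and 28.1%, 25.0% and 24.6%, 20.9% and 24.9%, 21.5% and 22.0%, and 29.2% and 26.9%.

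**Figure D1:**
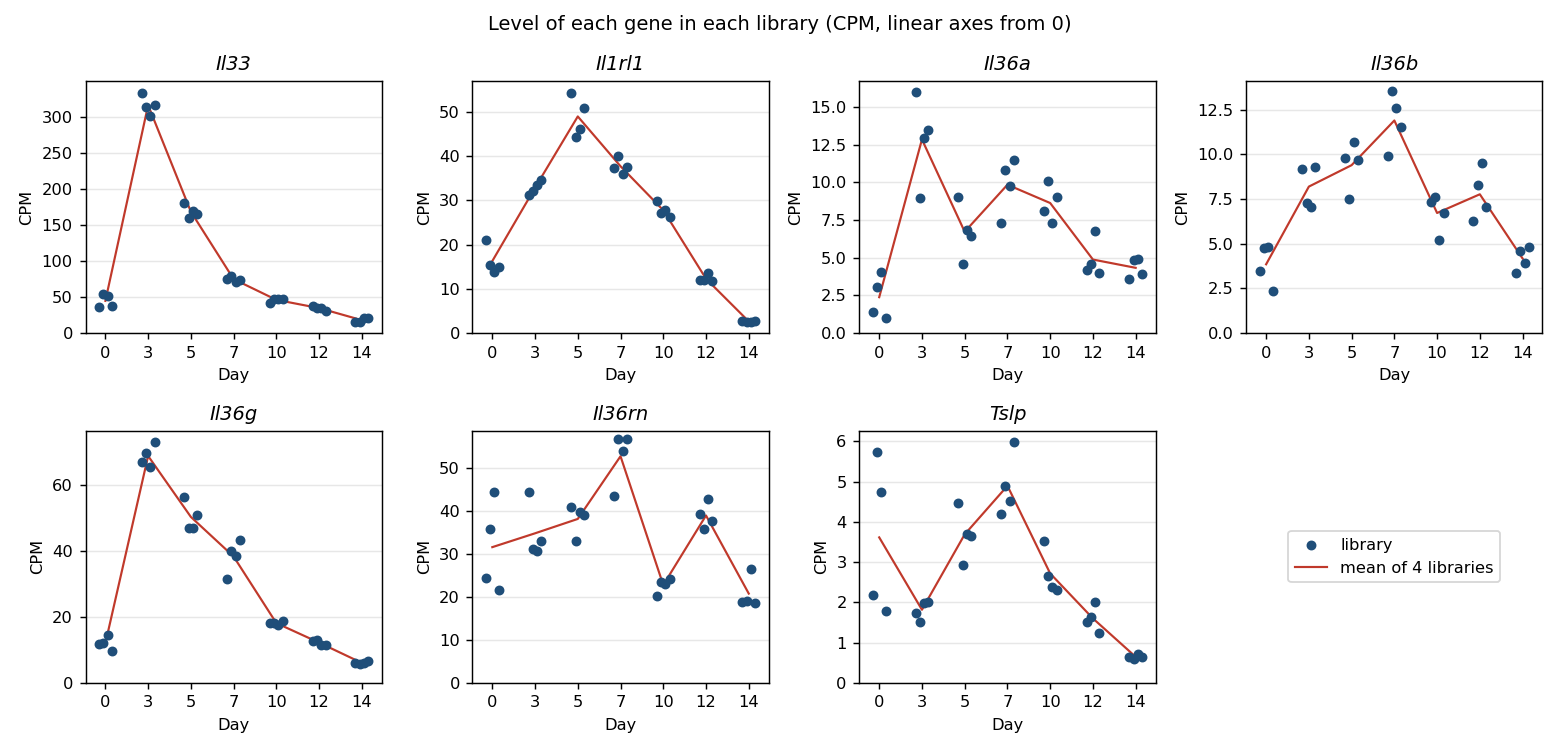
CPM of each member in every library (points) with the mean of the 4 libraries of a day (line), by day on an evenly spaced axis, each panel on its own scale. Il33 and Il36g have their highest means on day 3 (316 and 68.9 CPM), the first day sampled after day 0. Il1rl1 has its highest mean on day 5 (49.0 CPM), and Il36b, Il36rn and Tslp on day 7 (11.9, 52.7 and 4.89 CPM).

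By the criteria of the study's methods (a log2 fold change over 1.5 and an unadjusted P under 0.05), 3 members were higher on each of days 3, 5 and 7 than on day 0, against 6.50%, 5.61% and 4.66% of all tested genes. None was lower then (all genes, 12.4%, 8.31% and 4.74%). By the same criteria 1 member was higher and 0 lower on day 10 (4.33% and 5.14%), 0 were higher and 0 lower on day 12 (3.89% and 3.51%), and 0 were higher and 2 lower on day 14 (5.15% and 8.83%). The 3 were Il33, Il36a and Il36g on day 3, Il33, Il1rl1 and Il36g on day 5, and Il36a, Il36b and Il36g on day 7. Il36a was the member higher on day 10, and Il1rl1 and Tslp were lower on day 14. Over the 7 days jointly, 7 of 7 members differed by edgeR's F test, as did 89.5% of all genes. Il33 stood 91st, Il36g 118th and Il1rl1 129th of 18107 genes by the p of that test, whereas the other members stood between 5942nd and 7782nd.

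Between consecutive sampled days, which do not use day 0, 2 members rose and 3 fell from day 3 to day 5, when 12.9% of all genes rose and 11.4% fell. From day 5 to day 7, 1 rose and 3 fell (all genes, 13.9% and 14.6%). From day 7 to day 10, 0 rose and 6 fell (14.3% and 18.0%). By these calls falls outnumbered rises in each step. The median log2 fold change over all 7 members was nevertheless 0.13 from day 3 to day 5 and 0.34 from day 5 to day 7. From day 10 to day 12, 1 rose and 5 fell (18.7% and 20.7%), and from day 12 to day 14, 0 rose and 6 fell (19.9% and 25.3%). By libraries without overlap, 2 members were wholly higher and 2 wholly lower at day 5 than at day 3 (all genes, 14.1% and 14.7%), 1 and 3 at day 7 than at day 5 (14.2% and 15.3%), 0 and 6 at day 10 than at day 7 (17.3% and 20.1%), 1 and 5 at day 12 than at day 10 (22.3% and 23.5%), and 0 and 6 at day 14 than at day 12 (20.7% and 26.0%). Each of 2 steps held falls of 6 members, with medians over all 7 members of -0.82 from day 7 to day 10 and -0.95 from day 12 to day 14 on the log2 scale.

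**Figure D2:**
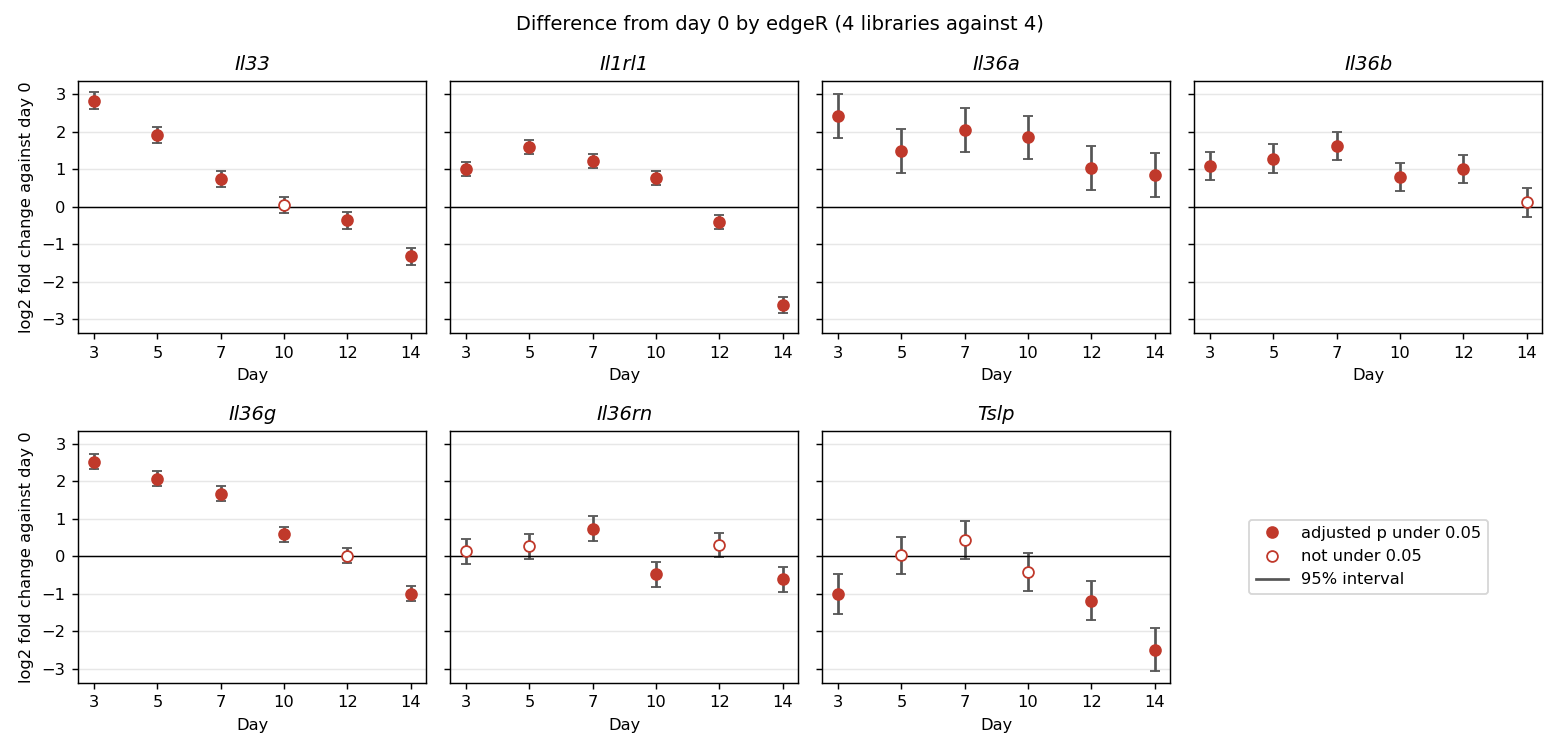
Fitted log2 fold change of each member against day 0 (vertical axis) by day (evenly spaced), with 95% intervals as bars, 4 libraries against 4. Filled points have an adjusted p under 0.05 and open points do not. Il33 and Il36g descend from 2.82 and 2.52 on day 3 to -1.32 and -0.99 on day 14, Il36a stays above 0 on each of the 6 days, and Il36rn and Tslp stay near or below 0 except on day 7.

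Il33, the nuclear alarmin, rose on days 3, 5 and 7 and fell on day 14. Its level was 35.7, 54.6, 50.7 and 37.6 CPM in the 4 day 0 libraries, 333, 313, 301 and 315 CPM on day 3, and 180, 159, 169 and 164 CPM on day 5. It was 75.2, 79.6, 70.4 and 73.7 CPM on day 7 and 42.1, 46.7, 47.8 and 47.6 CPM on day 10. It then stood at 37.3, 35.1, 35.0 and 31.1 CPM on day 12 and at 15.1, 15.6, 20.4 and 20.4 CPM on day 14. Every library of days 3, 5 and 7 lay above every day 0 library, those of day 10 lay within the day 0 range, and those of day 14 lay below it. Il33 rose 7.07-fold from day 0 to day 3 (log2 fold change 2.82, 95% interval 2.60 to 3.05, adjusted p = 3.62e-18), and 442 of 18107 genes had a larger log2 fold change. The rise was 1.91 ± 0.11 (SE) on day 5 and 0.74 ± 0.11 on day 7 on the log2 scale. On day 10 the difference from day 0 was 0.04, with an interval from -0.17 to 0.26 (adjusted p = 0.756 by edgeR), and it was 0.33 (adjusted p = 0.00446) without day 0 replicates 2 and 3 and -0.19 (adjusted p = 0.078) without replicates 1 and 4. On day 12 Il33 was 0.37 lower than on day 0 on the log2 scale (-0.37, adjusted p = 0.00548), and -0.07 with an adjusted p of 0.603 without day 0 replicates 2 and 3. The call was also lost without composition normalization (-0.22, adjusted p = 0.0772 by edgeR), with the 8 libraries alone (-0.37, adjusted p = 0.0738) and by limma on FPKM (-0.19 and -0.20 with pseudocounts of 1 and 0.1, adjusted p = 0.119 and 0.123). It fell by 1.32 on day 14 (2.50-fold, interval -1.54 to -1.10, adjusted p = 3.57e-11).

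Each step between consecutive days from day 3 on lowered Il33 on the CPM scale. It fell by 0.91 from day 3 to day 5, by 1.17 from day 5 to day 7, by 0.70 from day 7 to day 10, by 0.41 from day 10 to day 12 and by 0.95 from day 12 to day 14 (log2 scale, SE 0.10 to 0.11, adjusted p between 1.19e-09 and 0.00263 by edgeR). In each of these 5 steps the libraries of the pair of days did not overlap. Relative to Krt5 and Krt14 counts, the step from day 10 to day 12 was 0.03 with overlap (exact permutation p = 0.8), and Il33 fell without overlap in the other steps. Markers of myeloid cells moved with Il33 on day 3, when 31.8% of all tested genes rose and 34.8% fell. All 6 neutrophil markers rose from day 0 to day 3, with a summed level of 15.9 to 41.7 CPM on day 0 and 4323 to 5464 CPM on day 3, and Ly6g was at 0 in all 4 day 0 libraries. All 5 macrophage markers rose as well, from 1500 to 2430 CPM on day 0 to 4332 to 4507 CPM on day 3. On day 14 4 of 6 neutrophil and 5 of 5 macrophage markers were lower than on day 0 (all genes, 34.5%). The fibroblast list, another source of IL-33, had 1 marker higher and 3 lower on day 3 (6037 to 23564 CPM on day 0, 7812 to 8972 CPM on day 3), and the endothelial list 3 higher and 1 lower of 4 (407 to 535 CPM on day 0, 727 to 789 CPM on day 3). The part of these cells in the level of Il33 was not tested.

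Il33 had its highest mean on day 3, the first day sampled after day 0, so an earlier maximum of Il33 would not be seen. Il1rl1, which encodes ST2 in its membrane-bound and soluble decoy forms, had its highest mean on day 5. Its level was 20.9, 15.4, 13.8 and 15.0 CPM on day 0, 31.3, 32.0, 33.4 and 34.7 CPM on day 3, and 54.4, 44.4, 46.2 and 51.0 CPM on day 5. It was 37.3, 40.0, 35.9 and 37.7 CPM on day 7 and 29.8, 27.2, 27.8 and 26.4 CPM on day 10. It was 12.0, 12.0, 13.5 and 11.7 CPM on day 12 and 2.71, 2.60, 2.48 and 2.78 CPM on day 14. In the order of their means (days 5, 7, 3, 10, 0, 12 and 14), no 2 neighbouring days overlapped. Counts per gene do not separate the membrane-bound from the soluble form. Il1rl1 rose 2.02-fold on day 3 and 3.01-fold on day 5 (log2 fold change 1.59, interval 1.40 to 1.77, adjusted p = 1.67e-14). It rose further from day 3 to day 5, by 0.58 ± 0.09 (SE) on the log2 scale (adjusted p = 1.45e-05), over the same step in which Il33 fell. From day 12 to day 14 it fell by 2.22 (4.64-fold, SE 0.10, adjusted p = 9.80e-15), and 164 of 18107 genes had a smaller log2 fold change in that step. Day 12 lay wholly below day 0 (-0.41, adjusted p = 6.11e-04 by edgeR, and -0.25, adjusted p = 0.0173, without day 0 replicates 1 and 4). Day 14 was 6.15-fold below day 0 (log2 fold change -2.62, interval -2.84 to -2.41, adjusted p = 3.66e-17).

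Markers of cells that carry ST2 also differed between days. Against day 0, 31.8% of all tested genes were higher and 34.8% lower on day 3, and 29.0% and 30.6% on day 5. The shares were 25.6% and 24.8% for day 7 and 28.2% and 34.5% for day 14. Of 7 mast cell markers tested, 1 rose and 5 fell from day 0 to day 3 (summed level 505 to 635 CPM on day 0, 329 to 399 CPM on day 3), and on day 5, at the peak of Il1rl1, 1 was higher and 2 were lower. On day 14, 1 was higher and 5 were lower, with a summed level of 177 to 237 CPM and a median of -1.51 on the log2 scale. Of 5 markers of regulatory T cells and type 2 innate lymphoid cells, 4 were higher and 1 lower on day 7, and 0 were higher and 4 lower on day 14 (summed level 139.6 to 163.3 CPM at day 0, 80.7 to 96.5 CPM at day 7, 65.2 to 75.6 CPM at day 14). Rora, the 1 marker that fell on day 7, made up most of that sum (142 CPM at day 0). On day 5, at the peak of Il1rl1, Foxp3, Klrg1 and Rora had means of 1.13, 0.604 and 66.4 CPM. Their day 0 means were higher, at 1.43, 0.830 and 142 CPM. Il2ra and Icos had means of 5.89 and 3.57 CPM on day 5, above 4.89 and 2.58 CPM on day 0. On day 3 the means of Klrg1 and Rora (0.709 and 48.9 CPM) were below day 0. Those of Foxp3, Il2ra and Icos (1.69, 7.38 and 3.00 CPM) were above it. Of 3 eosinophil markers tested, none passed on day 3 and 2 fell on day 14. Epx, a defining eosinophil gene, was at 0 in every library of days 3 to 14. The part of these cells in the level of Il1rl1 was not tested.

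Of the 3 IL-36 agonist genes, Il36g was the only one lower on day 14 than on day 0. Its level was 11.8, 12.2, 14.4 and 9.57 CPM on day 0, 67.1, 69.7, 65.4 and 73.1 CPM on day 3, and 56.4, 47.1, 46.9 and 51.0 CPM on day 5. It was 31.4, 40.1, 38.5 and 43.3 CPM on day 7 and 18.1, 18.1, 17.6 and 18.7 CPM on day 10. It was 12.7, 13.1, 11.5 and 11.5 CPM on day 12 and 5.86, 5.66, 6.02 and 6.59 CPM on day 14. Days 3, 5, 7 and 10 lay wholly above day 0, day 12 lay within its range, and day 14 lay wholly below it. Il36g rose 5.74-fold on day 3 (log2 fold change 2.52, interval 2.32 to 2.72, adjusted p = 2.73e-18) and was still 1.51-fold higher on day 10 (0.60 ± 0.10, SE, adjusted p = 8.30e-06). On day 12 the difference was 0.02, with an interval from -0.18 to 0.22 (adjusted p = 0.860 by edgeR). On day 14 it had fallen below day 0 by 0.99 on the log2 scale (-0.99, interval -1.20 to -0.78, adjusted p = 2.39e-09). A rise on day 3 and a fall on day 14 against day 0 was found in Il33, Il1rl1 and Il36g, and in 9.18% of all tested genes. Of 4 markers of wound edge keratinocytes, 3 rose from day 0 to day 3 (summed level 468 to 709 CPM on day 0, 2454 to 2984 CPM on day 3). Of 6 basal keratinocyte markers 0 rose and 4 fell (all genes, 31.8% and 34.8%). The summed basal level on day 3 was 3543 to 4404 CPM. It lay above day 0 replicates 2 and 3 (3068 and 3158 CPM) and below replicates 1 and 4 (6044 and 6886 CPM). On day 14, 2 of the 4 wound edge markers were higher than on day 0 (all genes, 28.2%). Most of the sum of the wound edge markers, 1486 to 1792 CPM, was Krt17 (mean 1405 CPM, against 412 CPM on day 0). Krt17 is also a keratin of hair follicles, whose 8 of 8 markers were higher. Krt6b and Krt16 had means of 9.34 and 25.9 CPM on day 14, against 8.38 and 25.3 CPM on day 0. The part of these cells in the level of the IL-36 genes was not tested.

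Il36a had the fewest counts of the 7 on day 0 and was the only member higher on day 14 than on day 0, a call that rests on day 0 replicates 1 and 4. Its level was 1.43, 3.03, 4.07 and 1.00 CPM on day 0, from 36 to 157 counts, and 16.0, 8.97, 13.0 and 13.5 CPM on day 3. It was 9.04, 4.56, 6.82 and 6.47 CPM on day 5, 7.31, 10.8, 9.79 and 11.5 CPM on day 7, and 8.09, 10.1, 7.31 and 9.04 CPM on day 10. On day 12 it was 4.16, 4.62, 6.75 and 3.99 CPM and on day 14 3.61, 4.88, 4.91 and 3.93 CPM. Days 3, 5, 7 and 10 lay wholly above day 0, and days 12 and 14 overlapped with it. Il36a rose 5.36-fold on day 3 (log2 fold change 2.42, interval 1.84 to 3.01, adjusted p = 2.44e-08) and was 2.04 ± 0.28 (SE) higher on day 7 and 1.85 ± 0.28 higher on day 10 on the log2 scale. Without day 0 replicates 1 and 4 the rises of days 3, 5, 7 and 10 were 1.86, 0.92, 1.47 and 1.28, and without replicates 2 and 3 they were 3.45, 2.47, 3.01 and 2.82, in place of 2.42, 1.49, 2.04 and 1.85. Its rises on day 12 (1.03, adjusted p = 0.00426) and day 14 (0.85, adjusted p = 0.0117) were 0.46 (adjusted p = 0.127) and 0.29 (adjusted p = 0.325) without day 0 replicates 1 and 4 by edgeR. Between consecutive days Il36a fell from day 3 to day 5 (-0.93, adjusted p = 0.0102) and from day 10 to day 12 (-0.82, adjusted p = 0.0158 by edgeR), of which the latter lost its call without day 10 replicate 2 (-0.72, adjusted p = 0.0531) or day 12 replicate 4 (-0.74, adjusted p = 0.0525).

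Il36b had its highest mean on day 7, which overlapped with day 5. Its level was 3.46, 4.75, 4.82 and 2.36 CPM on day 0, 9.20, 7.26, 7.05 and 9.27 CPM on day 3, and 9.77, 7.48, 10.7 and 9.67 CPM on day 5. It was 9.89, 13.5, 12.6 and 11.5 CPM on day 7 and 7.31, 7.63, 5.22 and 6.73 CPM on day 10. On day 12 it was 6.25, 8.26, 9.51 and 7.04 CPM and on day 14 3.36, 4.62, 3.93 and 4.79 CPM. Every library of days 3 to 12 exceeded every day 0 library, and day 14 lay within the day 0 range. Il36b rose 2.12-fold on day 3, 2.43-fold on day 5 and 3.08-fold on day 7 (log2 fold change 1.62, interval 1.25 to 2.00, adjusted p = 2.51e-08). On day 10 it was 0.80 above day 0 on the log2 scale (adjusted p = 6.76e-04), or 0.49 and 1.205 without either pair of day 0 replicates, and on day 14 0.11 (adjusted p = 0.615), which became 0.59 (adjusted p = 0.0185) without replicates 2 and 3. The steps from day 3 to day 5 (0.20, interval -0.17 to 0.56) and from day 5 to day 7 (0.34, interval -0.02 to 0.70) did not pass the test. It fell by 0.82 from day 7 to day 10 and by 0.90 from day 12 to day 14 (log2 scale, adjusted p = 6.51e-04 and 2.34e-04 by edgeR).

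Il36rn, the antagonist gene, did not pass the test on day 3, when all 3 agonist genes rose. Its level was 24.3, 35.9, 44.4 and 21.6 CPM on day 0, 44.3, 31.2, 30.7 and 32.9 CPM on day 3, and 40.8, 32.9, 39.7 and 38.9 CPM on day 5. It was 43.5, 56.7, 53.9 and 56.7 CPM on day 7 and 20.3, 23.5, 23.0 and 24.3 CPM on day 10. On day 12 it was 39.4, 35.9, 42.7 and 37.7 CPM and on day 14 18.9, 19.1, 26.5 and 18.6 CPM. Its day 0 libraries spanned 21.6 to 44.4 CPM, and every later day overlapped with them. On day 3 the difference from day 0 was 0.14, with an interval from -0.19 to 0.47 (adjusted p = 0.453 by edgeR), and 0.65 (adjusted p = 2.43e-04) without day 0 replicates 2 and 3. Its differences on days 5 and 12 were 0.27 and 0.30 and did not pass, but were 0.74 (adjusted p = 5.43e-05) and 0.78 (adjusted p = 5.04e-05) without the same replicates. Leaving out day 0 replicate 3 alone gave 0.35 for day 3, 0.48 for day 5 and 0.52 for day 12 (adjusted p = 0.0407, 0.00757 and 0.00574 by edgeR). With all libraries, day 12 also passed without composition normalization (0.45, adjusted p = 0.0216) and by limma on FPKM (0.47 and 0.50 with pseudocounts of 1 and 0.1, adjusted p = 0.0129 and 0.0123). Il36rn rose on day 7 (0.74, interval 0.41 to 1.07, adjusted p = 3.37e-04), by 0.39 without replicates 1 and 4 and by 1.198 without replicates 2 and 3. It was lower on days 10 (-0.47, adjusted p = 0.0166) and 14 (-0.61, adjusted p = 0.0020), of which neither fall passed without day 0 replicates 2 and 3 (-0.01, adjusted p = 0.955, and -0.07, adjusted p = 0.692). The fall of day 10 was also lost without day 0 replicate 2 (-0.40, adjusted p = 0.0552) or 3 (-0.26, adjusted p = 0.154) or day 10 replicate 1 (-0.42, adjusted p = 0.0543). The fall of day 14 lost its call with the 8 libraries alone (-0.54, adjusted p = 0.0667). The falls of day 10 and day 14 had exact permutation p-values of 0.2 and 0.0857 over the 4 against 4 libraries, where 0.0286 is the smallest possible.

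Within the wound, free of day 0, Il36rn moved up and down between neighbouring days. It rose by 0.47 ± 0.16 (SE) from day 5 to day 7 (adjusted p = 0.0272), fell by 1.21 from day 7 to day 10 (2.32-fold, adjusted p = 1.37e-06), rose by 0.77 from day 10 to day 12 (1.71-fold, adjusted p = 3.28e-04) and fell by 0.91 from day 12 to day 14 (adjusted p = 5.02e-05), all on the log2 scale by edgeR. In each of these 4 steps the libraries did not overlap. The rise from day 5 to day 7 lost its call without day 5 replicate 2 or day 7 replicate 2, 3 or 4 (0.40 to 0.46 on the log2 scale, adjusted p = 0.0517 to 0.0903 by edgeR). Il36rn was the only member that rose from day 10 to day 12. Differentiated keratinocyte markers (Krt1, Krt10, Ivl, Lor and Flg) moved in their summed level, which mostly followed Krt10, with 1758 to 2037 CPM at day 5, 2610 to 3096 CPM at day 7, 1739 to 2071 CPM at day 10, 2718 to 3061 CPM at day 12 and 993 to 1420 CPM at day 14, against 2622 to 2986 CPM at day 0. From day 7 to day 10, 1 of the 5 markers rose and 2 fell (all genes, 14.3% and 18.0%), and Flg went from 133 to 224 CPM while Krt10 went from 1551 to 710 CPM. On day 3, when that sum was lowest (758 to 1063 CPM) and 5 of 5 markers had fallen (all genes, 34.8%), Il36rn stood at 30.7 to 44.3 CPM. The part of these cells in the level of Il36rn was not tested.

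Tslp, at chr18:32815383-32819799, was the only member overlapped by another annotated gene, the antisense lincRNA 4930455D15Rik, which had at most 1 count in any library. It was the only member that fell on day 3. Its level was 2.19, 5.74, 4.74 and 1.78 CPM on day 0, 1.73, 1.52, 1.99 and 2.01 CPM on day 3, and 4.47, 2.94, 3.69 and 3.66 CPM on day 5. It was 4.18, 4.89, 4.51 and 5.99 CPM on day 7 and 3.53, 2.65, 2.38 and 2.31 CPM on day 10. On day 12 it was 1.504, 1.63, 2.02 and 1.25 CPM and on day 14 0.63, 0.59, 0.71 and 0.65 CPM, which were 25 to 29 counts. Day 14 lay wholly below day 0, and every other day overlapped with it. Tslp fell on day 3 (-0.996, interval -1.52 to -0.47, adjusted p = 0.00131), but its value without day 0 replicates 2 and 3 was -0.08 (adjusted p = 0.762) and the exact permutation p over 4 against 4 libraries was 0.114. From day 3 to day 5 it rose 2.03-fold without overlap (1.02 ± 0.26, SE, adjusted p = 0.00405 by edgeR). On days 5, 7 and 10 its differences from day 0 were 0.03, 0.43 and -0.41 and did not pass, and those of days 5 and 7 were 0.90 (adjusted p = 7.99e-04) and 1.30 (adjusted p = 1.15e-05) without day 0 replicates 2 and 3. Without replicates 1 and 4, day 5 was instead lower than day 0 (-0.50, adjusted p = 0.0249 by edgeR), as was day 10 (-0.95, adjusted p = 1.15e-04). Single libraries also turned these calls, with 0.75 for day 7 (adjusted p = 0.0103) without day 0 replicate 2, and -0.59 (adjusted p = 0.0472) or -0.63 (adjusted p = 0.0210) for day 10 without day 0 replicate 1 or 4. Tslp was 1.18 lower on day 12 (-1.18, adjusted p = 4.39e-04), with -0.30 (adjusted p = 0.295) without day 0 replicates 2 and 3, and 5.60-fold lower on day 14 (-2.48, interval -3.07 to -1.90, adjusted p = 1.67e-08), or -1.54 on the log2 scale without replicates 2 and 3. From day 12 to day 14 alone it fell by 1.31 (2.47-fold, adjusted p = 6.10e-04 by edgeR), without overlap.

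On the deposited FPKM scale, which divides a count by gene length and library total so that genes can be set beside each other, the order of the members changed with the day. On day 0 Il36rn (15.8 ± 5.36, SD, n = 4) and Il33 (14.6 ± 3.11) led, followed by Il36g (7.11 ± 1.19), Il36b (4.76 ± 1.46), Tslp (3.12 ± 1.67), Il36a (2.64 ± 1.59) and Il1rl1 (2.13 ± 0.40). On day 3 Il33 led with 99.2 ± 4.94 FPKM, then Il36g with 39.3 ± 1.72, Il36rn with 16.8 ± 3.26, Il36a with 13.7 ± 3.14, Il36b with 9.75 ± 1.44, Il1rl1 with 4.14 ± 0.15 and Tslp with 1.504 ± 0.18 FPKM. On day 14 Il36rn (11.3 ± 1.76) was again above Il33 (6.37 ± 0.99), and Il36g (3.91 ± 0.30) had dropped below Il36b (5.65 ± 1.00) and Il36a (5.23 ± 0.78). Tslp (0.61 ± 0.03) and Il1rl1 (0.38 ± 0.03 FPKM) were then the lowest.

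The balance of agonists to antagonist shifted with these levels. The summed FPKM of Il36a, Il36b and Il36g over that of Il36rn was 0.93 ± 0.09 (SD, n = 4) for day 0, 3.81 ± 0.50 for day 3, 2.56 ± 0.11 for day 5, 1.83 ± 0.03 for day 7, 2.52 ± 0.29 for day 10, 1.14 ± 0.13 for day 12 and 1.33 ± 0.23 for day 14. The ratio ranged from 0.854 to 1.06 in the day 0 libraries and from 3.10 to 4.24 in those of day 3, so the ratio separated these days although Il36rn itself did not. Il36g made up 50.4 ± 7.15% of the agonist FPKM at day 0, 62.8 ± 4.44% at day 3 and 26.6 ± 2.83% at day 14. The FPKM of Il33 over that of Il1rl1 was 7.12 ± 2.31 for day 0, 24.0 ± 1.92 for day 3, 4.15 ± 0.43 for day 10 and 16.9 ± 3.06 for day 14. It was high on day 3 with Il33 at its highest mean, and high again on day 14 with Il1rl1 at its lowest level. These ratios are given as descriptions, without a test.

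**Figure D3:**
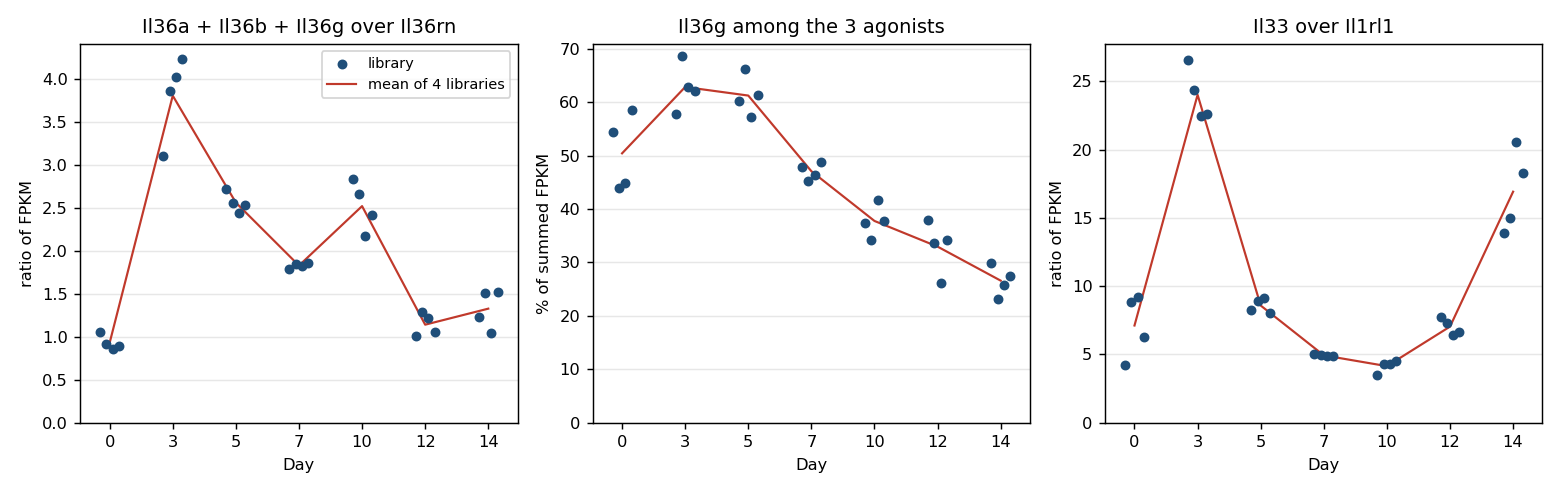
Ratios of FPKM in each library (points) with the mean of 4 (line), by day on an evenly spaced axis. The left panel gives IL-36 agonists over Il36rn, highest on day 3 (3.10 to 4.24), the middle panel the share of Il36g among the agonists in percent, which declines from 62.8% on day 3 to 26.6% on day 14, and the right panel Il33 over Il1rl1, high on day 3 (24.0) and again on day 14 (16.9).

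Set against the epidermis in the sample, as the log2 ratio of a member's counts to the summed counts of Krt5 and Krt14, keratins of basal keratinocytes, 5 members were higher in the first week. Relative to these keratins, Il33 was 2.95 higher on day 3 than on day 0, Il36a 2.71, Il36g 2.64, Il36b 1.24 and Il1rl1 1.13 on the log2 scale (exact permutation p = 0.0286 for each, the smallest possible). The same 5 members were higher on days 5 and 7 at that p, and 0 were lower on these 3 days. On this scale 12.9%, 17.3% and 16.1% of all tested genes were higher than on day 0 without overlap on days 3, 5 and 7, and 14.1%, 8.35% and 4.88% were lower. On day 10 Il36a alone was higher (1.95) and none lower (all genes, 7.33% and 10.2%), and on day 12 Il36b alone was higher (1.38) and none lower (15.8% and 3.63%). On day 14 Il33 (-1.46), Il1rl1 (-2.75), Il36g (-1.13) and Tslp (-2.45) were lower at exact permutation p = 0.0286, and 0 were higher (all genes, 15.5% lower and 7.76% higher). Tslp on day 3 (-0.73, exact p = 0.429) and Il36rn on day 7 (1.16, exact p = 0.0571) did not reach it on this scale. The day 0 ratios of a member varied with an SD of 0.57 to 1.58 log2 units, against at most 0.36 on any later day. From day 7 to day 10 and from day 12 to day 14, 7 of 7 members were lower relative to the keratins without overlap and 0 higher, as were 58.2% and 61.1% of all tested genes lower and 3.02% and 1.86% higher. The summed level of Krt5 and Krt14 itself went up in these steps, from a mean of 2634 to 3637 CPM and from 2682 to 3767 CPM. In the remaining steps the members did not all move down on this scale. From day 3 to day 5, 3 were higher and 1 lower at exact permutation p = 0.0286, from day 5 to day 7, 3 and 3, and from day 10 to day 12, 2 and 1. Shares of all genes were not computed for the remaining steps.

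**Figure D4:**
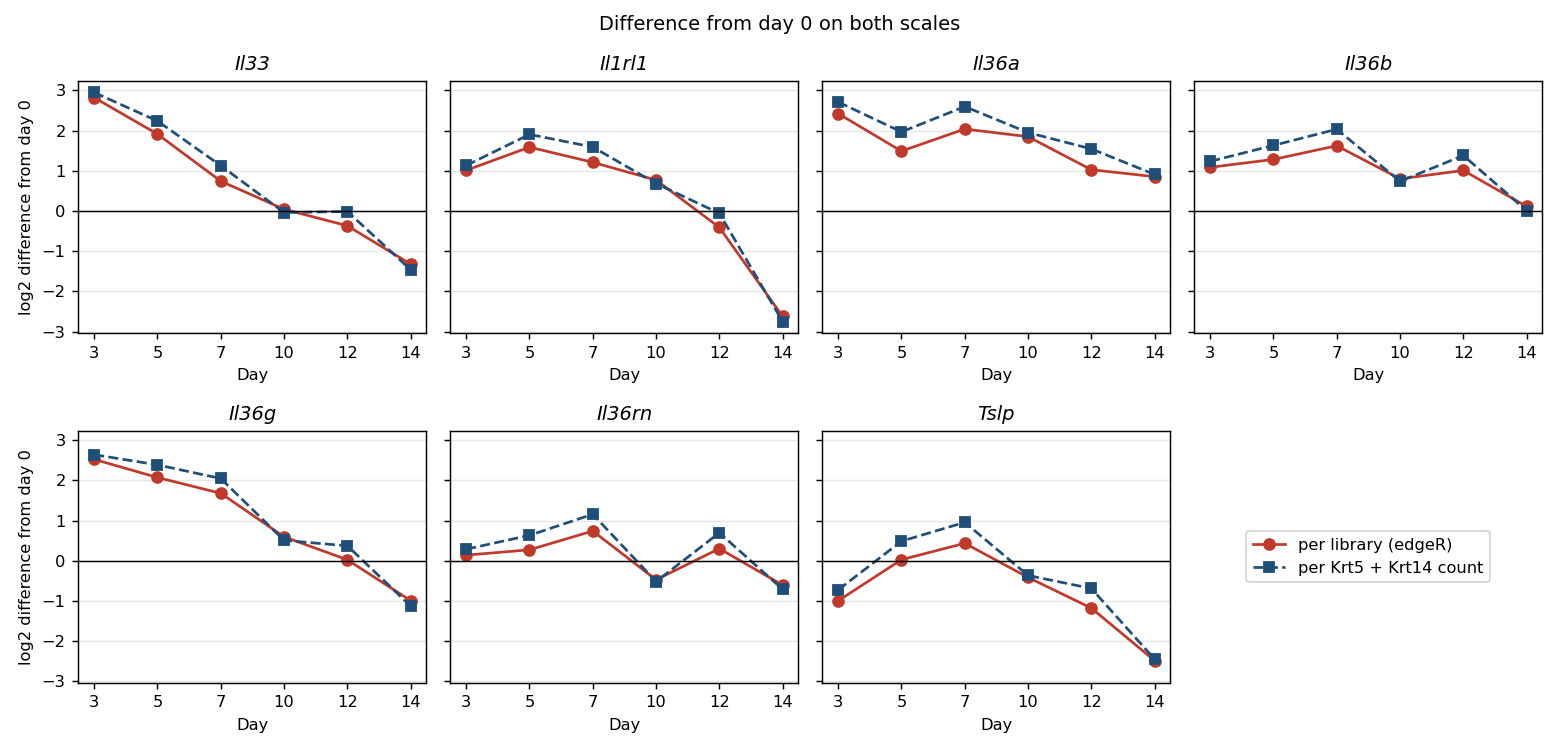
Difference from day 0 of each member on the 2 scales, CPM and relative to Krt5 and Krt14 counts (log2 units), by day. The early rises of Il33, Il36a, Il36g, Il36b and Il1rl1 are seen on both scales (2.82 and 2.95 for Il33 on day 3), whereas the small differences of days 10 and 12 shift between them (Il33 on day 12, -0.37 and -0.01).

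Other genes of these pathways were followed as lists chosen with earlier results of the data known. Against day 0, 31.8% of all tested genes rose and 34.8% fell on day 3, and 29.0% and 30.6% on day 5. The shares to set beside these lists were 25.6% and 24.8% for day 7 and 28.2% and 34.5% for day 14. Among the 5 receptor and regulator genes, 3 rose and 1 fell on day 3 (median log2 fold change 0.69, all genes -0.03), and 0 rose and 2 fell on day 14 (-0.39, all genes -0.06). Il1rap, the subunit shared by the IL-33 and IL-36 receptors, rose from 46.7 ± 9.67 to 106 ± 2.64 CPM (SD, n = 4) on day 3 and fell to 20.1 ± 1.66 CPM on day 14. Il1rl2, the receptor of IL-36, had a level of 77.5 ± 4.24 CPM on day 3 against 88.3 ± 16.1 CPM on day 0 (-0.19, adjusted p = 0.083 by edgeR) and fell on days 10, 12 and 14, to 51.0 ± 1.80 CPM on the last. The TSLP receptor chain Crlf2 rose from 9.92 ± 1.47 to 28.5 ± 2.18 CPM on day 3, while Tslp was at 1.81 ± 0.23 CPM. Its partner Il7r was highest on day 10 (26.3 ± 1.13 CPM, 1.05 ± 0.11 above day 0 on the log2 scale). Sigirr, a brake on receptors of this family, fell on day 3 (-0.52, adjusted p = 0.0116 by edgeR) and passed on no other day.

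The 12 adaptor and kinase genes were mostly higher early and lower late. On day 3, 9 rose and 0 fell (median 0.73, all genes -0.03), by day 5 9 were higher and 2 lower (0.56), and at the last day 0 were higher and 10 lower (-0.44). Myd88, the adaptor of these receptors, rose by 1.77 ± 0.06 (SE) on day 3, and the kinase gene Irak2 by 1.38 ± 0.06 on day 5 on the log2 scale. The largest falls were those of Stat5b, which carries signals of the TSLP receptor (-1.12), and of Irak3, an inhibitor of the pathway (-0.94), both on day 14. Of the 7 genes for proteases that cut these cytokines, 3 rose and 2 fell on day 3 (median 0.26), beside 31.8% and 34.8% of all tested genes. On day 14, 1 rose and 4 fell (-0.59), beside 28.2% and 34.5%. Ctss, a protease that processes IL-36γ, rose from 296 ± 116 to 883 ± 36.4 CPM on day 3. Cma1, the mast cell chymase, fell from 123 ± 5.72 to 79.1 ± 7.41 CPM on day 3 and to 43.4 ± 7.26 CPM on day 14. The neutrophil serine protease genes were low, with day means of at most 0.43 CPM for Elane and 0.69 CPM for Ctsg, and 2.20 to 6.20 CPM for Prtn3, which fell on days 7 to 14.

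The other genes for ligands and antagonists of the IL-1 family were mostly higher on day 3, with 4 higher and 1 lower of 5 (median 2.14, all genes -0.03), and mostly lower on day 14 (1 higher and 4 lower, median -0.86). Il1b went from 11.9 ± 5.13 CPM on day 0 to 762 ± 61.8 CPM on day 3, Il1a from 5.02 ± 1.70 to 22.2 ± 1.51 CPM, and the antagonist gene Il1rn from 33.1 ± 2.20 to 212 ± 16.6 CPM. Il18 rose by 0.28 on day 3 (adjusted p = 0.0105 by edgeR) and fell by 0.99 on day 14. Il1f10, which encodes IL-38, a further ligand of the IL-36 receptor, was low early and high late. It fell from 3.79 ± 0.93 CPM on day 0 to 0.78 ± 0.31 CPM on day 3 and 0.34 ± 0.11 CPM on day 10, and rose to 13.6 ± 1.5 CPM on day 12 and 14.1 ± 2.74 CPM on day 14.

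Of the 12 genes that IL-36 is known to induce in keratinocytes, 11 could be tested. On day 3, 9 rose and 0 fell with a median of 6.31 (all genes -0.03). By day 7, 8 were higher and 1 lower (2.01), and at day 14, 1 was higher and 6 were lower (-0.89). S100a8 rose from 5.22 ± 4.13 to 1273 ± 157 CPM and S100a9 from 11.8 ± 7.59 to 2774 ± 367 CPM on day 3, and both are also on the list of neutrophil markers, of which 6 of 6 rose. Csf3, a growth factor for neutrophils, rose from 0.11 ± 0.05 to 15.6 ± 0.47 CPM on day 3 and was at 0.01 CPM on days 12 and 14. Ccl20, a chemokine for lymphocytes, had 2.53 ± 2.48 CPM on day 0 and 2.55 ± 0.47 CPM on day 3 and fell to 0.15 ± 0.09 CPM on day 14. Which cells made these transcripts was not tested.

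The genes of type 2 responses, which IL-33 and TSLP can elicit, showed no common direction. Of 11 listed, 8 could be tested, of which 3 rose and 3 fell on day 3 (median -0.42, all genes -0.03), 3 were higher and 5 lower by day 5, and 2 were higher and 4 lower at day 14 (-0.34). Day means of Il4, Il5, Il9 and Il13 did not exceed 0.24 CPM. Tnfsf4, which encodes OX40 ligand, rose from 0.03 ± 0.02 to 2.82 ± 0.44 CPM on day 3. Areg, which encodes the growth factor amphiregulin, rose from 1.51 ± 0.62 to 8.38 ± 0.58 CPM. Gata3, a transcription factor of type 2 lymphocytes that keratinocytes and hair follicles also express, fell from 67.9 ± 11.2 to 17.4 ± 2.64 CPM on day 3, when 8 of 8 hair follicle markers fell (266 to 2197 CPM on day 0, 8.0 to 15.1 CPM on day 3). Ccl24, an eosinophil chemokine of macrophages, fell from 17.8 ± 11.5 CPM on day 0 to 1.64 ± 0.44 CPM on day 14.

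Over the 28 libraries, the courses of Il33 and Il36g were the most alike of any pair of members (Pearson r of log2 CPM 0.96), and those of Il36a and Tslp the least (0.27). Of 14683 genes with a mean of at least 1 CPM, those most like Il33 included Arpc1b and Fes (r = 0.99 for each), and those most like Il36g were Glrx, Plek and Samsn1 (0.99, 0.99 and 0.98). Those most like Il1rl1 were Mfsd11, Man1c1 and Galnt7 (0.97 each). Those most like Il36a included Klk13 and Rbp2 (0.89 and 0.88), and Il36b was most like Kctd11, Septin2 and Sh3gl1 (0.93, 0.91 and 0.89). Il36rn was most like Dsc1, Gramd3 and Ly6m (0.90, 0.89 and 0.89), and Tslp like Sar1a, Slc38a4 and Tmed3 (0.94, 0.93 and 0.93). These correlations describe libraries that share a day and are not tests.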

How the data were processed

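Gene expression was measured by RNA sequencing in 28 libraries of mouse skin. The authors deposited raw counts per gene symbol, without normalization, and FPKM values, which follow from the same counts and a length per gene. Per the labels, reads were handled with fastp and R 3.2.0 on build mm10, and the aligner, counter, annotation and strandedness are not given in the sources used here. Intervals at a total of 36706513 to 40655764 counts per library cover counting error and the spread between libraries, estimated for each gene over the 7 days together. The biological coefficient of variation was larger on day 0 (26.4%) than on later days (5.70% to 10.8%). Intervals and edgeR p-values against day 0 may therefore be too narrow and too small.

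The 28 libraries entered a common quasi-likelihood model of edgeR 4.0.16 (R 4.3.3), after filterByExpr on the 7 days and TMM scaling, and contrasts were tested two-sided with glmQLFTest. CPM used TMM-scaled totals. P-values were adjusted over 18107 genes by the Benjamini-Hochberg method, and "rose" and "fell" mean an adjusted p under 0.05. Each later day was compared with day 0 and with the day sampled before it. Exact two-sided permutation tests used log2 CPM (prior count 2) or the log2 ratio to Krt5 and Krt14 counts (0.5 added), in SciPy 1.17.1. Tools were tested on simulated data. Alternatives were DESeq2 1.42.0, its size factors or no composition normalization in edgeR, other count filters, limma 3.58.1 on log2(FPKM + 1) and log2(FPKM + 0.1), the 8 libraries of a comparison alone, the replicate number as a block, the study's limits, and each library left out in turn. The members and lists were chosen with earlier results of these data known. Genes named were all members, all genes of lists of up to 7, the 2 largest rises and 2 largest falls of longer lists, and the 3 genes most like each member, apart from a few that are not reported here. Sequences and positions came from RefSeq GRCm38.p6 and overlaps from GENCODE vM21, both of the files' build.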

Additional observations from a re-analysis of the deposited data

Results flagged for a closer look

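Among 49 groups of 4 libraries (7 members on 7 days), a single library stood apart from the other 3 in 2, and chance gives about 1 in 20. Il1rl1 had 3.76 log2 CPM in replicate 3 of day 12, against 3.56 to 3.59 in the other 3 libraries of that day. Il36rn had 4.73 log2 CPM in replicate 3 of day 14, against 4.22 to 4.26 in the others.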

How the results depend on the processing

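Under the 777 member values recomputed with settings other than leaving out 1 library, 735 kept their direction and side of the threshold, 18 lost the call, 13 gained it and 11 changed sign. With 1 library left out, 591 of 616 kept both and 8 changed sign. The changed signs concern differences that did not pass with all libraries. Without day 0 replicates 1 and 4, the log2 fold changes against day 0 of Il36rn were -0.21 on day 3, -0.073 at day 5 and -0.043 at day 12, of Tslp -0.50 at day 5 and -0.096 at day 7, of Il33 -0.19 at day 10, of Il36g -0.12 at day 12 and of Il36b -0.19 at day 14. Without replicates 2 and 3, Tslp was 0.45 at day 10. Tslp at day 5 was -0.016 without composition normalization and -0.0021 with the 8 libraries alone. With single libraries left out it ranged from -0.19 to 0.33, Il33 at day 10 from -0.046 to 0.16, Il36g at day 12 from -0.051 to 0.13, and Il36a from day 12 to day 14 from -0.25 to 0.034.

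By the study's limits, the members higher numbered 3 each on days 3, 5 and 7, 1 at day 10 and 0 at days 12 and 14, and those lower 0 at days 3, 10 and 12 and 2 at day 14. Relative to Krt5 and Krt14, 1 member was higher each at days 10 and 12 and 0 at day 14, and 0 were lower at days 3, 10 and 12. With the 8 libraries of a comparison alone, 0 were lower at day 10, 1 higher at day 12, 0 higher at day 14, and 3 higher from day 5 to day 7. The fold changes behind the lost calls were close to those with all libraries, at -0.46 for Il36rn on day 10, 1.03 for Il36a on day 12 and 0.93 for Il36a on day 14. By limma on FPKM with either pseudocount, 0 were lower at day 10. Without day 0 replicates 1 and 4, 1 was lower at day 5 and 2 at day 10, and 1 was higher at day 12 and 0 at day 14. Without replicates 2 and 3, 0 were lower at days 3 and 10 and 1 at day 12, and 2 were higher at day 14. With single libraries left out, the member lower at day 10 became 0 to 2 (0 without day 0 replicate 2 or 3 or day 10 replicate 1, and 2 without day 0 replicate 1 or 4), the member higher from day 5 to day 7 became 0 to 1 (0 without day 5 replicate 2 or day 7 replicate 2, 3 or 4), and those lower from day 10 to day 12 became 3 to 5 (3 without day 12 replicate 4). The cause of these changes was not tested.

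Libraries with the same replicate number did not deviate together (median r -0.00091 over 84 pairs, of which 1 exceeded 0.1), so they share only a number. With the replicate number as a block, no member changed its call, and Il33 on day 3 was 2.83. Tslp on day 14 rests on 25 to 29 counts a library.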
